A study of Mus musculus with 96 samples.

Results

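The cytochrome P450 genes of families 1 to 4 were followed across 16 tissues of wild-type and Scx-/- mice. They are every gene symbol made of Cyp, a family number from 1 to 4, a subfamily letter and a final number, which gave 76 of 41575 symbols. Of these 76 genes, 68 had a count in at least 1 library and 8 were at 0 in all of them. Bulk RNA was measured by MuSeq, in which each sample receives its own barcode at reverse transcription before samples are pooled and read near the 3′ end of their transcripts. Liver, kidney, lung, spleen and bladder, the digestive tract (stomach, intestine and rectum), the brain (cortex and hippocampus), heart and vascular tissue, and muscle, bone, cartilage and adipose were each taken from wild-type (WT) and Scx-/- mice, which lack the tendon transcription factor scleraxis, at 3 weeks of age, as 3 libraries per tissue and genotype and 96 in all. How the Scx allele was made is not given in the labels, and neither are the sex of the mice or whether the 3 libraries of a group came from separate animals. The p-values therefore measure the spread between these libraries, which may be technical in whole or in part. In liver and kidney the sex-linked counts given below differed within each genotype, so those groups did not come from 1 animal.

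P450 enzymes of these families are heme proteins of the endoplasmic reticulum that insert 1 oxygen atom into drugs, pollutants, steroids and fatty acids, with electrons delivered by the reductase Por. Families 1 to 3 are best known for drug and pollutant metabolism in liver, gut and lung, and family 4 for the oxidation of fatty acids at the end of the chain in liver and kidney. In mice many of them lie in tandem clusters of near-identical copies, and several are switched on by the nuclear receptors Nr1i2, Nr1i3 and Ppara or by the aryl hydrocarbon receptor Ahr.

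Library totals ranged from 11244 to 1658192 counts (median 251640), and 16 libraries held fewer than 100000. In liver they were 245271 to 481409 in WT and 580110 to 768443 in Scx-/- mice, and in kidney 672218 to 1015500 and 242429 to 447350, so depth did not overlap between the genotypes in either organ. Scx itself had counts in 12 of 48 WT libraries (1 to 18 counts) and in 1 of 48 libraries labelled Scx-/-, replicate 1 of cartilage, with 9 counts. Libraries that stood apart were Scx-/- replicate 2 of bladder, replicate 3 of vascular tissue and replicate 3 of adipose, in which the hepatocyte gene Alb reached 3046, 2694 and 1570 CPM (counts divided by the library total and scaled to the same total in every library), and the 3 Scx-/- rectum libraries, in which the 6 squamous epithelium genes summed to 4904 to 10926 CPM against 4.60 to 20.1 CPM in WT. WT replicate 2 of heart held only 11244 counts, with 6403 CPM on kidney proximal tubule genes. In liver and kidney, WT replicates 1 and 3 and Scx-/- replicate 1 carried Xist, the RNA of the inactive X chromosome, while WT replicate 2 and Scx-/- replicates 2 and 3 carried Y-linked counts, so these sex-linked counts were not balanced between the genotypes. Defining markers were checked for the organs the results turn on, with counts for all 8 hepatocyte genes in liver (168163 to 220199 CPM summed), all 8 proximal tubule genes in kidney (28638 to 43432 CPM) and 5 of 6 lung epithelial genes in lung (62249 to 100735 CPM). Other labels described their libraries less well: the libraries labelled adipose carried 271088 to 358876 CPM of pancreatic acinar genes, those labelled vascular 3499 to 13148 CPM of brown fat genes, and those labelled spleen 42.8 to 49877 CPM of acinar genes. Acinar genes also ran from 25.9 to 28296 CPM in intestine and from 206 to 17520 CPM in stomach. In bone, proximal tubule genes summed to 572 to 1807 CPM in WT and 125 to 426 CPM in Scx-/- libraries.

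The larger subfamilies lie in clusters, with 14 of the 15 members of 2C on chromosome 19, 8 of the 9 of 2D on chromosome 15, the 7 of 3A on chromosome 5, the 8 of 2J and 5 of 4A on chromosome 4 and the 4 of 2A and 5 of 2B on chromosome 7. Many of them are near copies, which limits how far counts can be told apart. In the last 500 bases of the longest transcript, 41 of 74 members with a transcript shared at least 1 stretch of 50 bases with another gene. The share of such stretches was 74.3% for Cyp2c40, 66.7% for Cyp4a32, 51.2% for each of Cyp2c67 and Cyp2c68, 44.3% for Cyp2a4, 38.4% for Cyp2c69 and 35.3% for Cyp3a44, so the split of counts among these genes is uncertain. Smaller shares were found for Cyp2c37 (30.4%), Cyp2c50 (27.5%), Cyp2d26 (25.7%), Cyp2d9 (23.9%), Cyp2e1 (18.8%) and Cyp2a5 (12.4%), among others. Cyp2c37 and Cyp2c50 shared stretches with each other, so their counts are not fully separate either. Promoters of 62 members were found in RefSeq (GRCm38.p6). Those of a pair from subfamily 2A and a pair from subfamily 2C are shown because the members of each pair lie on 1 chromosome and differ by few bases there, while their counts in Scx-/- liver are described further on. Capitals mark the bases that differ within a pair, and positions are counted from 1 at the first base printed. Cyp2a4 is at chr7:26306943-26307191 on the plus strand, ending 1 base before the annotated start of transcription, and Cyp2a5 at chr7:26835089-26835337 on the plus strand, ending 2 bases before it.
Cyp2a4: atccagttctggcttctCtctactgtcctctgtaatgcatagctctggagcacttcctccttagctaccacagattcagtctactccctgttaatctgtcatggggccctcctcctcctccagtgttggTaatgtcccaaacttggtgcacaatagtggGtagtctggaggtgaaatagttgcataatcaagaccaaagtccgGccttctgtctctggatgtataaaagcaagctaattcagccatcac
Cyp2a5: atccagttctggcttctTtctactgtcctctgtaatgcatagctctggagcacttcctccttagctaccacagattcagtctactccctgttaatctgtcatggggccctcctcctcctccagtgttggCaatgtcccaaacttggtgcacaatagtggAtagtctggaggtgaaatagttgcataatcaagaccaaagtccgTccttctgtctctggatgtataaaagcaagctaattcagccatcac
The sequences were identical at 245 of 249 bases, and the differences, with the base of Cyp2a4 first, were C18T, T130C, G160A and G204T. Cyp2c40 is at chr19:39812815-39813034 and Cyp2c69 at chr19:39886800-39887019, both on the minus strand and ending 1 and 31 bases before the annotated start.
Cyp2c40: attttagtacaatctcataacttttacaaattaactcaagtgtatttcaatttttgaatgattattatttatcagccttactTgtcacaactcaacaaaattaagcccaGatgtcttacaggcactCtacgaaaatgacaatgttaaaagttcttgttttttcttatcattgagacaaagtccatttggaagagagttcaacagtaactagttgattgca
Cyp2c69: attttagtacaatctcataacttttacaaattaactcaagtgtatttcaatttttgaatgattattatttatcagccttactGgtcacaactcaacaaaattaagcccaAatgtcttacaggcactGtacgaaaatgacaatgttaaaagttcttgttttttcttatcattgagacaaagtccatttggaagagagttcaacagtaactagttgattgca
This pair was identical at 217 of 220 bases, with T83G, G110A and C127G from Cyp2c40 to Cyp2c69.

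Over the 62 promoters of 300 bases (250 before and 50 after the start), the TATA box TATAAA on the strand of the gene was found in 30.6% of members and in 8.88% of all 27025 promoters of that length. The nuclear receptor half-site AGGTCA, searched on both strands, was present in 30.6% of members and 16.04% of all promoters, and the half-site GTTAAT of the liver factor HNF1, also on both strands, in 12.9% and 7.20%. CCAAT was found on either strand in 46.8% of members against 37.9% of all promoters, while GCGTG, the core of the element bound by the aryl hydrocarbon receptor, was found in 20.97% of members and 32.5% of all. Within these 300 bases the 2A pair and the 2C pair each hold both TATAAA and GTTAAT, but the TATAAA of the 2C pair lies outside the bases printed above. A match is given here as letters, not as a bound site.

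The P450 genes took a larger share of the counts in every liver library than in any library of another tissue, and intestine and kidney came next. Their counts made up 2.17% ± 0.121 of the library total in WT liver and 2.89% ± 0.409 in Scx-/- liver (SD, n = 3 each), 0.536% ± 0.161 and 0.653% ± 0.0567 in intestine, and 0.404% ± 0.0529 and 0.578% ± 0.0743 in kidney. Lung stood at 0.251% ± 0.0232 and 0.276% ± 0.02, stomach at 0.145% ± 0.0125 and 0.166% ± 0.031, and rectum at 0.139% ± 0.0284 and 0.133% ± 0.0287. The liver libraries did not overlap between genotypes, with 2.04% to 2.28% in WT and 2.61% to 3.36% in Scx-/- mice, and neither did the kidney libraries, with 0.350% to 0.456% and 0.511% to 0.658%. In the other 4 of these tissues the genotypes overlapped, and intestine and kidney overlapped with each other. As a sum over genes chosen by name the share was not tested. In the remaining 10 tissues the highest libraries were Scx-/- replicate 3 of vascular tissue (0.135%) and replicate 2 of bladder (0.121%), both rich in Alb, and the shallow WT replicate 2 of heart (0.125%).

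**Figure D1:**
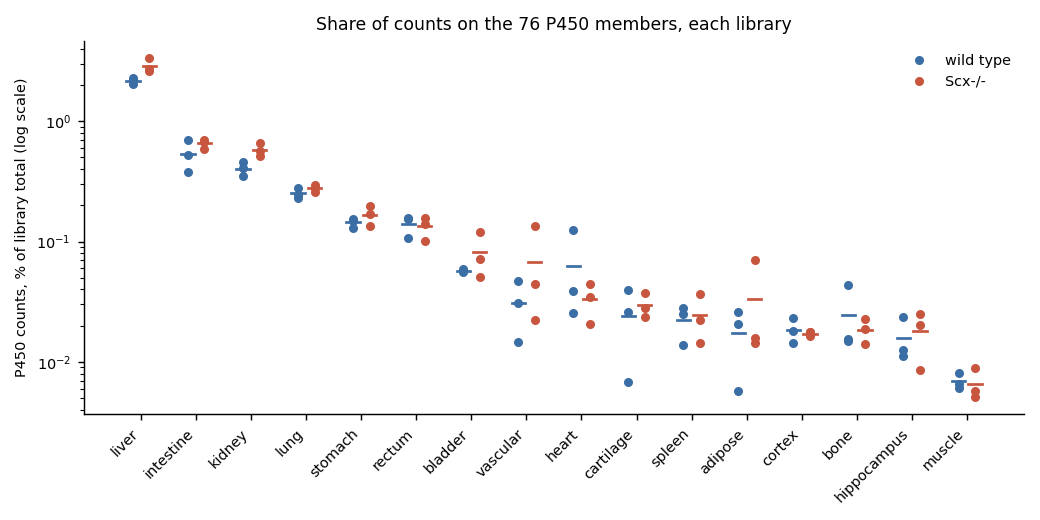
Share of each library's counts that fell on the 76 P450 genes (y axis, percent of the library total, log scale) for the 16 tissues (x axis), with a dot per library, blue for wild type and red for Scx-/-, and a bar at the mean of 3 libraries. Liver lies above every other tissue at 2.04% to 3.36%, and the genotypes are separate in liver and kidney.

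The subfamilies differed in weight from organ to organ, and several, such as 2C, 2D and 3A, were large in more than 1. In liver, 2C genes took 31.7% of P450 counts in WT and 29.0% in Scx-/- mice, 3A genes 24.8% and 20.5%, 2E 10.9% and 15.5%, and 2D 9.93% and 12.8%. Kidney was made up of the fatty acid hydroxylases of subfamily 4A (39.9% and 50.01%), the arachidonic acid epoxygenases of 2J (31.8% and 21.8%) and 2D (14.2% and 23.1%), and without WT replicate 1 the WT shares were 34.3% for 4A and 36.6% for 2J. Lung rested on 2F (54.0% and 50.04%) and 4B (16.8% and 18.3%), and stomach on 2S (60.9% and 59.0%) with 2C (14.1% and 14.2%). In intestine 3A came first (26.0% and 36.9%), with 2D at 16.6% and 17.7% and 4F at 21.3% and 9.93%, the second of which was 3.01% without Scx-/- replicate 1. In rectum 2D stood at 37.5% in WT and 17.4% in Scx-/- mice and 2F at 0.193% and 15.5%, of which Scx-/- replicate 1 gave 99 of 119 counts, and without it the 2F share was 3.11%. These pooled shares were not tested.

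**Figure D2:**
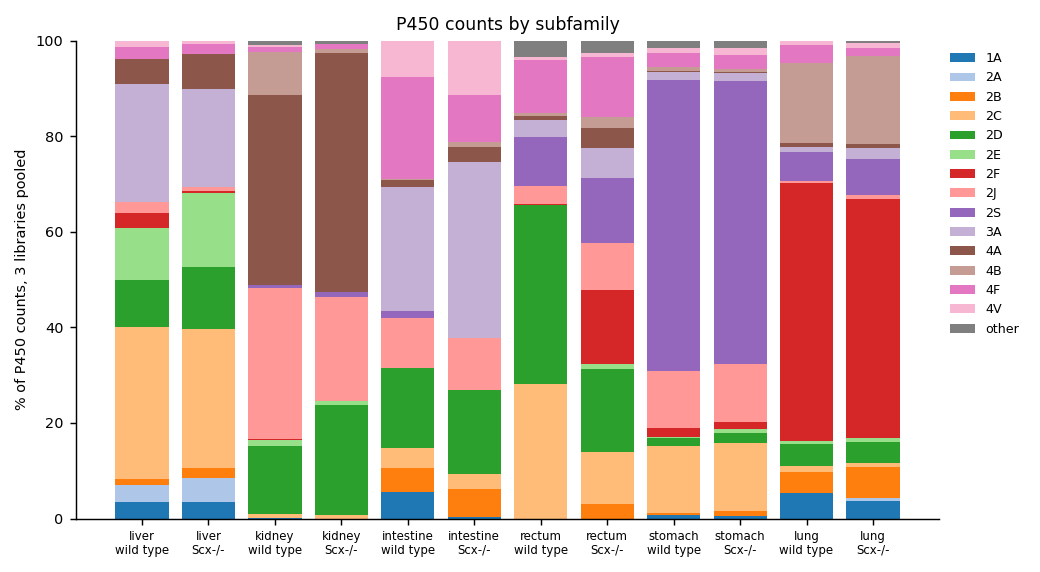
Make-up of the P450 counts by subfamily (y axis, percent of P450 counts, 3 libraries pooled) in 6 tissues of each genotype (x axis), with a colour per subfamily. The 2C and 3A subfamilies are the largest in liver, 4A leads kidney, 2F lung and 2S stomach in both genotypes.

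Members were compared with each other per length of the longest transcript, as a length-scaled share of the P450 counts in each genotype, although reads near the 3′ end need not scale with length. In liver Cyp3a11, the main 3A enzyme of mouse liver, held 17.3% in WT and 14.1% in Scx-/- mice and the ethanol-oxidising Cyp2e1 11.7% and 16.4%, with an order that also varied between libraries of 1 genotype, while as unscaled counts Cyp3a11 came first in both (20.5% and 17.1%, with Cyp2e1 at 10.9% and 15.5%). The epoxygenase Cyp2c29 followed at 9.22% and 10.3%, and Cyp2c70, an enzyme of muricholic acid synthesis, held 9.33% in WT. In kidney the epoxygenase Cyp2j5 was first in WT (25.05%, with 18.0% in Scx-/- mice) and Cyp2d26 in Scx-/- mice (26.9%, with 15.8% in WT), and the lauric acid hydroxylase Cyp4a10 was second in both (19.8% and 24.3%). First place in Scx-/- kidney was lost without replicate 1, when Cyp4a10 stood at 26.4% and Cyp2d26 at 23.8%, and in WT replicate 1 alone Cyp2d26 came ahead of Cyp2j5. In intestine Cyp2d26 held 21.9% in WT and 21.6% in Scx-/- mice and Cyp3a11 12.5% and 22.8%, and without Scx-/- replicate 1 they stood at 28.7% and 17.8% in Scx-/- mice. Cyp4f14, of a subfamily that inactivates leukotrienes, and Cyp3a13 came after them in the pooled counts of both genotypes. The club cell enzyme Cyp2f2, known for activating naphthalene, held 57.6% and 54.2% in lung, followed by Cyp4b1 at 17.6% and 19.6%. Cyp2s1, an enzyme of epithelia, held 54.1% and 52.3% in stomach, followed by Cyp2c65 at 18.1% and 16.5%. Rectum was led in WT by Cyp2d34 (30.9%) and Cyp2c55 (23.2%), which stood at 21.8% and 30.5% without WT replicate 2 and at 43.3% and 7.64% without WT replicate 1. In Scx-/- rectum Cyp2f2 held 18.2%, with 99 of its 119 counts from replicate 1, Cyp2d34 10.3% and Cyp2c55 9.73%, and without that replicate Cyp2d34 came first at 12.5%.

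**Figure D3:**
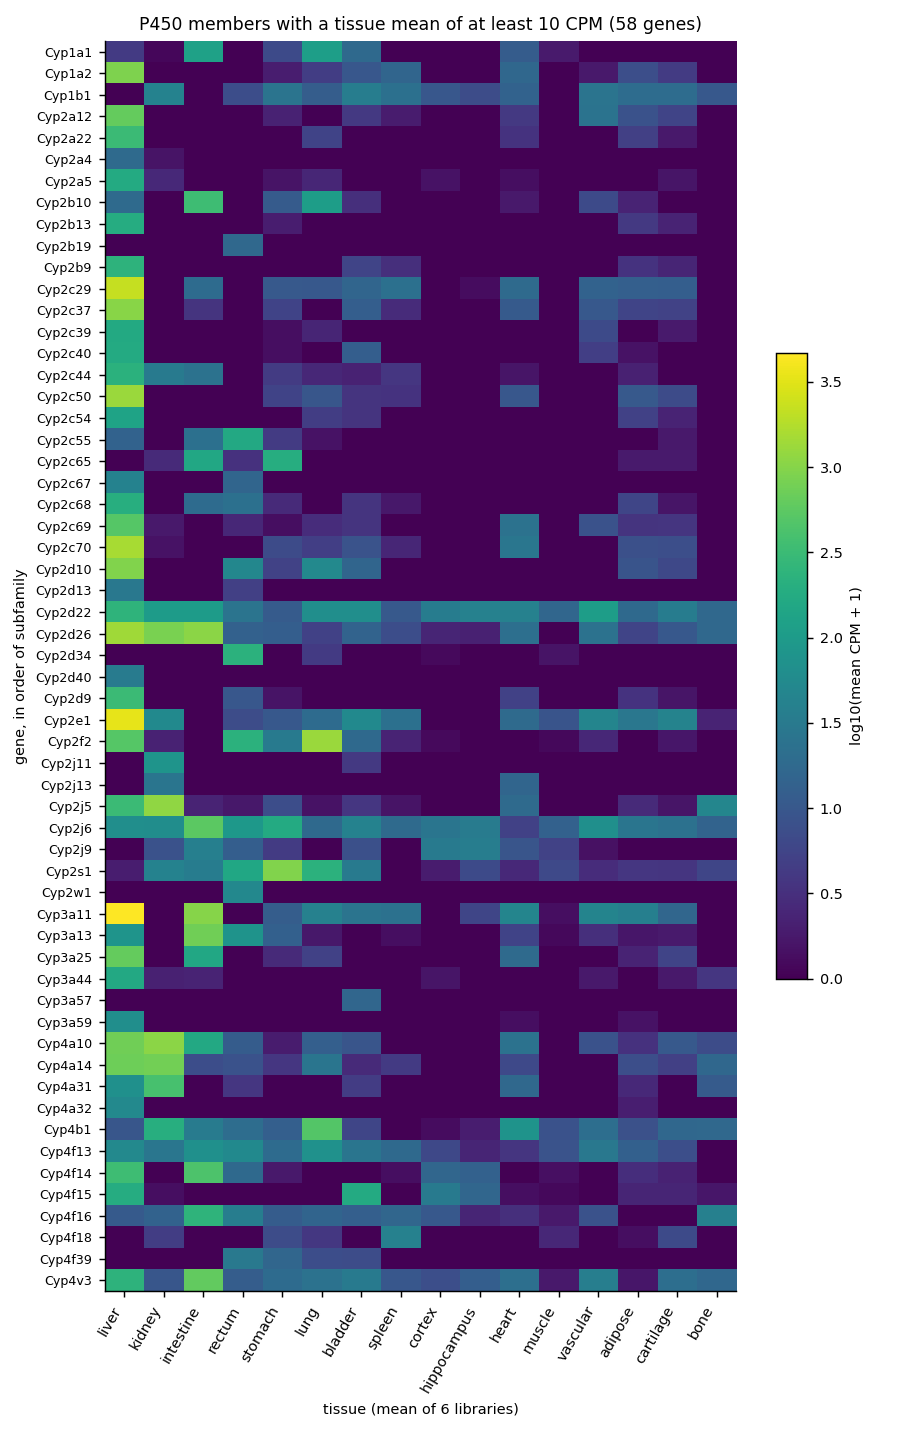
Mean level over 6 libraries, as log10(CPM + 1) by colour, of the 58 members that reach 10 CPM in at least 1 tissue (rows) in the 16 tissues (columns). Rows are to be read across tissues, since transcripts differ in length; 31 of the 58 have their highest tissue mean in liver.

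Of the 58 members with a tissue mean of at least 10 CPM, the highest mean lay in liver for 31, in intestine for 8, kidney for 7, rectum for 5, lung for 3, stomach for 2, and bladder and spleen for 1 each. By edgeR's quasi-likelihood test over all 96 libraries, 26 of the 68 measured members were higher in 1 tissue than in each of the 15 others (adjusted p under 0.05 and over 2-fold in every pairwise contrast): 24 in liver, where 1.31% of 22493 genes were called in this way, 1 in stomach (0.178%) and 1 in rectum (0.0489%). The other 42 were not. Over the alternatives of scaling, filtering and left-out replicates the liver count was between 17 and 24. Outside liver, 5 members were called with library totals, in place of 1 each in stomach and rectum.

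The 24 included Cyp3a11 and Cyp2e1, the most counted members of the liver. Cyp3a11 ran at 4643 ± 1110 CPM in liver (SD, n = 6), with 989 CPM in intestine as the next tissue, and was 12.5-fold higher in liver in the fit (log2 3.64, SE 0.47, adjusted p = 3.34e-12). Cyp2e1, at 3372 CPM, was 66.7-fold above the libraries labelled adipose, the next by the fit and rich in pancreatic acinar genes (log2 6.06, SE 0.57, adjusted p = 4.93e-23), and Cyp1a2, the caffeine-oxidising enzyme, was 83.3-fold above adipose (log2 6.38, SE 0.74, adjusted p = 4.00e-15). As mean CPM, Cyp2e1 was above 50 CPM in bladder and below it in adipose. Of its 73 adipose counts, 64 lay in Scx-/- replicate 3, which also carried Alb. The 2C genes called were Cyp2c29 (122-fold over the next tissue), Cyp2c70 (115-fold), Cyp2c37 (162-fold), Cyp2c50 (67.2-fold), Cyp2c69, Cyp2c39, Cyp2c40, Cyp2c44, Cyp2c68 and Cyp2c54. Cyp2a12, Cyp2a22 and Cyp2a5 of the 2A subfamily, Cyp2b9 and Cyp2b13 of 2B, Cyp2d10 and Cyp2d9 of 2D, and Cyp3a25, Cyp3a44 and Cyp3a59 of 3A completed the list together with Cyp2d22. The gap was smallest for Cyp2d22, which was found in 77 of 96 libraries and was 4.002-fold higher in liver than in kidney (log2 2.00, SE 0.53, adjusted p = 0.0143), and for Cyp3a25, 8.26-fold higher in liver than in intestine. Fold changes over tissues where a gene is near 0 depend on the prior count of the fit. For several members the next tissue was adipose, heart or vascular tissue, some libraries of which also held hepatocyte markers.

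Stomach had 1 member of its own. Cyp2s1 stood at 926, 793 and 914 CPM in the WT and 853, 745 and 1328 CPM in the Scx-/- libraries, above every library of every other tissue, and was 6.48-fold higher than in lung (log2 2.70, SE 0.54, adjusted p = 5.34e-04), where it ranged from 42.8 to 564 CPM. Cyp2c65 was shared between stomach (124 to 260 CPM) and intestine (54.6 to 366 CPM), whose libraries overlapped.
In rectum Cyp2d34 was called against each other tissue (log2 6.39 over muscle, SE 1.13, adjusted p = 0.0232), but its libraries ran from 0 to 770 CPM. Cyp2c55 had 487, 48.1 and 201 CPM in WT and 0, 95.3 and 146 CPM in Scx-/- rectum. Cyp2w1 (0 to 132 CPM) and Cyp4f39 (0 to 152 CPM) also had their highest mean there, each with at least 1 library at 0. When replicate 1, 2 or 3 of every group was left out, 0, 1 and 1 members were called outside liver.

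Lung was marked by Cyp2f2 and Cyp4b1. Cyp2f2 measured 1404, 642 and 1504 CPM in WT and 1603, 1284 and 1323 CPM in Scx-/- lung, against 107 to 1643 CPM in liver, so the organs overlapped through WT replicate 2 of liver, which held 1643 CPM. Cyp4b1, which oxidises fatty acids and pro-toxins of the airway, ran from 398 to 615 CPM in lung, while in kidney it ran from 8.93 to 53.6 CPM in all libraries but WT replicate 2, which held 981 CPM. The aryl hydrocarbon receptor target Cyp1a1 averaged 114 CPM in lung with a range of 0 to 257 CPM, and 125 CPM in intestine, where it was at 486, 7.85 and 202 CPM in WT and 54.6, 0 and 0 CPM in Scx-/- mice. Against the mean of the 15 other tissues on the log scale, 8 of 68 members were called higher in lung, where 7.78% of all genes were.

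Intestine held 8 members at their highest mean. Cyp3a13 measured 649, 298 and 703 CPM in WT and 710, 1033 and 1019 CPM in Scx-/- intestine, and in liver, the next tissue, 8.15 to 153 CPM, so that the organs did not overlap. Cyp4v3, a fatty acid hydroxylase linked in humans to a crystalline retinal dystrophy, ran from 149 to 1245 CPM in intestine and from 184 to 307 CPM in liver. Cyp2j6 (200 to 964 CPM) and Cyp4f14 (33.3 to 843 CPM) were the others with the highest tissue means, and Cyp2b10, the classical target of Nr1i3, averaged 337 CPM there with 95.8 to 633 CPM. None of these was called above each other tissue. Against the mean of the 15 others, 18 of 68 members were called higher in intestine, where 5.92% of genes were. Its libraries held 93927 to 386890 counts in WT and only 26500 to 54955 in Scx-/- mice.

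Kidney shared its leading genes with other organs, and no member was above each other tissue there. Cyp2j5 stood at 844, 1322 and 1132 CPM in WT and 843, 1194 and 1411 CPM in Scx-/- kidney, and at 119 to 583 CPM in liver. Cyp4a31 ran at 287 to 427 CPM in WT and at 559, 6.14 and 771 CPM in Scx-/- kidney. Cyp2j11 (28.9 to 164 CPM) and Cyp1b1 (16.4 to 61.9 CPM), which metabolises estrogens and pollutants outside the liver, were present in every kidney library and absent from all 6 liver libraries. Against the mean of the 15 other tissues, 15 of 68 members were called in kidney, where 14.5% of all genes were, and 47 in liver, where 11% of all genes were. That contrast is dominated by tissues in which a gene is at or near 0, so members are described here by the comparison with each tissue.

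In the 10 remaining tissues few members had a mean over 6 libraries above 50 CPM: 3 in bladder, 2 in vascular tissue (Cyp2d22 at 110 CPM and Cyp2j6 at 66.9 CPM), Cyp4b1 in heart (75.5 CPM), and 0 in the 7 others, although single libraries exceeded 50 CPM for up to 17 members, in heart, where WT replicate 2 held 11244 counts. The heart mean of Cyp4b1 rests largely on that shallow library. Its counts were 1, 4 and 10 in WT replicates 1, 2 and 3 and 5, 5 and 1 in the Scx-/- libraries. Cyp2d22 had the most counts of all members in vascular tissue, cortex, muscle, heart and bone. In bladder Cyp4f15, another 4F hydroxylase, measured 223, 239 and 133 CPM in WT and 245, 125 and 82.3 CPM in Scx-/- libraries, next to 53.0 to 252 CPM in liver, and Cyp3a57 (3.12 to 43.6 CPM) had its highest mean there. Cyp4f18, a leukotriene-inactivating enzyme of leukocytes, was highest in spleen at 66.4, 31.0 and 0 CPM in WT and 55.6, 5.36 and 82.6 CPM in Scx-/- mice. Cyp2j9 was found in every cortex (11.4 to 50.02 CPM) and hippocampus library (10.3 to 105 CPM). Cyp2r1, the vitamin D 25-hydroxylase, reached only 18.7 CPM in 1 liver library and Cyp2u1 at most 8.58 CPM in cortex. The members at 0 in all libraries were Cyp2b23, Cyp2c66, Cyp2t4, Cyp2j7, Cyp2j8, Cyp4a29, Cyp4f37 and Cyp4x1. In liver 52 members had a count, in stomach 44, in adipose 40, in kidney 31 and in bone and hippocampus 15 each. These numbers moved with depth: with libraries thinned to 40000 counts, which left out 4 of the 96 as shallower, they were 49, 29, 21, 21, 14 and 11, next to 9 in cortex and, from 5 libraries, 6 in muscle.

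A direct comparison of liver with kidney, organs known for drug and fatty acid P450 enzymes, was fitted to their 12 libraries. Of 60 members tested, 38 were higher in liver (6.3% of all genes were) and 4 higher in kidney (10.1%), at an adjusted p under 0.05 and over 2-fold by edgeR. Among the liver genes were all 4 of the 2A subfamily. Cyp3a11 stood at 3214 to 6345 CPM in liver and at 0 in all 6 kidney libraries, as did Cyp2c29 (1329 to 3687 CPM in liver), Cyp2c50, Cyp2c37, Cyp2d10 and Cyp1a2. Cyp2j5 (log2 -1.33, SE 0.22, adjusted p = 7.13e-08), Cyp2j11 (-8.06, SE 1.33, adjusted p = 2.87e-08), Cyp1b1 (-7.18, SE 1.61, adjusted p = 1.26e-04) and Cyp2s1 (-5.19, SE 1.45, adjusted p = 0.00348) were the 4 higher in kidney, of which Cyp2j11 and Cyp1b1 were at 0 in liver. Of the 4A genes, Cyp4a10, Cyp4a14 and Cyp4a31 had counts in both organs, while Cyp4a32 had none in kidney. Cyp4a10 averaged 754 CPM in liver and 1063 CPM in kidney (log2 0.15 for liver over kidney after scaling, SE 0.20, adjusted p = 0.800), and Cyp4a14 731 and 779 CPM (log2 0.58, SE 0.21, adjusted p = 0.0390). Cyp2d26 was 2.51-fold higher in liver (log2 1.33, SE 0.19, adjusted p = 1.07e-10).

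The P450 genes of the liver differed between WT and Scx-/- mice in both directions. Of 52 members with a count in liver, 15 differed between genotypes at an adjusted p under 0.05 by edgeR, 11 higher and 4 lower in Scx-/- liver, where 0.442% of all 13356 genes differed. By the thresholds of the study (unadjusted p under 0.05 and over 2-fold), 17 members were higher, where 2.28% of all genes were, and 4 were lower, where 2.01% were, and with library totals 14 were higher and 6 lower. The median log2 difference of the 52 members was 0.74, beside 0.22 for all genes tested. The genotypes did not overlap for 21 members (14 higher and 7 lower in Scx-/- mice), beside 9.01% of all genes. With edgeR's filterByExpr removing genes of low count, 3 members stayed called, Cyp2a5, Cyp2d26 and Cyp2c69, and without Scx-/- replicate 3 the count was 9. By subfamily, 2 of 4 members of 2A, 1 of 3 of 2B, 3 of 13 of 2C, 2 of 6 of 2D, the single 2E member and 2 of 4 of 4A rose, while 2 members of 2C, 1 of 6 of 3A and the single 2F member fell.

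Among the enzymes of drugs, ethanol and arachidonic acid, Cyp2e1 measured 2796, 1354 and 2544 CPM in WT and 3646, 4345 and 5547 CPM in Scx-/- liver, without overlap, and rose 2.27-fold (log2 1.18, SE 0.20, adjusted p = 4.64e-06). Cyp2d26 went from 829, 620 and 734 CPM to 1650, 2472 and 1993 CPM (log2 1.66, SE 0.25, adjusted p = 7.56e-08). Cyp2c37 was at 785, 330 and 554 CPM in WT and at 1439, 1621 and 1436 CPM in Scx-/- mice (log2 1.59, SE 0.26, adjusted p = 2.24e-06). These 3 genes kept an adjusted p under 0.05 when any 1 of the 6 libraries was left out. Cyp2c50 rose from 976, 905 and 854 CPM to 1674, 1562 and 1907 CPM (log2 1.09, SE 0.25, adjusted p = 0.00398), a call lost without Scx-/- replicate 3 (log2 1.02). Cyp2c29 measured 2198, 1329 and 1605 CPM against 2344, 2234 and 3687 CPM (log2 0.86, SE 0.22, adjusted p = 0.0204), the smallest change called, and it lost the call without WT replicate 2 (log2 0.68), WT replicate 3 (0.79) or Scx-/- replicate 3 (0.60). Cyp2d9, a steroid 16-alpha-hydroxylase, went from 108, 351 and 102 CPM to 379, 577 and 374 CPM (log2 1.46, SE 0.37, adjusted p = 0.0197) and lost it without WT replicate 1 (1.18) or 3 (1.15) or Scx-/- replicate 2 (1.25) or 3 (1.57).

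Cyp2a5, the coumarin 7-hydroxylase, had the largest fitted change of the 15. Its libraries held 37.4, 0 and 7.06 CPM in WT and 157, 439 and 384 CPM in Scx-/- liver, and it rose 20.8-fold (log2 4.38, SE 0.52, adjusted p = 1.01e-12), with log2 values of 3.89 to 6.54 and the call kept when each library was left out. Its near copy Cyp2a4, a testosterone 15-alpha-hydroxylase whose promoter differs at 5 of 299 aligned bases, 4 of them printed above, had 16.6, 0 and 74.1 CPM in WT and 14.3, 0 and 1.72 CPM in Scx-/- mice (log2 -2.20, SE 1.64, adjusted p = 0.764). Cyp2a22 went from 237, 53.0 and 219 CPM to 389, 473 and 491 CPM (log2 1.56, SE 0.37, adjusted p = 0.00815), with the call lost without WT replicate 2 (1.14) or Scx-/- replicate 2 (1.55) or 3 (1.5). Cyp2b13 measured 133, 0 and 70.6 CPM against 255, 391 and 269 CPM (log2 2.25, SE 0.51, adjusted p = 0.0127), lost without WT replicate 3 (2.21) or Scx-/- replicate 2 (2.07). WT replicate 2, the WT library with Y-linked counts, was the lowest of its genotype for all 3 of Cyp2a5, Cyp2a22 and Cyp2b13.

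Of the 4 fatty acid hydroxylases of subfamily 4A tested in liver, 2 rose. Cyp4a14 measured 486, 416 and 519 CPM in WT and 556, 971 and 1436 CPM in Scx-/- mice (log2 1.24, SE 0.28, adjusted p = 0.00519), a call lost without WT replicate 2 (1.13) or Scx-/- replicate 3 (0.87). Cyp4a10 went from 594, 542 and 476 CPM to 737, 931 and 1241 CPM without overlap, but missed the threshold (log2 1.03, SE 0.28, adjusted p = 0.0518). Cyp4a32, which shares most of its 3′ end with Cyp4a10, rose from 10.4, 4.08 and 0 CPM to 56.0, 199 and 41.4 CPM (log2 4.26, SE 0.96, adjusted p = 0.00424), lost without Scx-/- replicate 2 (3.34). Cyp4a31 overlapped between genotypes (49.4 to 135 CPM in WT and 0 to 103 CPM in Scx-/- mice).

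The 4 members that fell were Cyp3a44, Cyp2c69, Cyp2f2 and Cyp2c40. Cyp3a44 had 249, 139 and 469 CPM in WT and 63.8, 11.9 and 27.6 CPM in Scx-/- liver, and fell by 2.83 on the log2 scale (SE 0.50, adjusted p = 1.58e-05). Cyp2c69 fell from 756, 1150 and 572 CPM to 242, 90.2 and 165 CPM (log2 -2.11, SE 0.33, adjusted p = 4.71e-07). Both were called without any 1 of the libraries, and neither overlapped between genotypes. Cyp2c40, which shares all but 3 of the printed promoter bases with Cyp2c69, measured 233, 526 and 67.0 CPM in WT and 59.9, 52.7 and 102 CPM in Scx-/- mice, which overlap (log2 -1.74, SE 0.46, adjusted p = 0.0418). It was called only when WT replicate 3 was the library left out, and its log2 value without WT replicates 1 and 2 and Scx-/- replicates 1, 2 and 3 in turn was -1.83, -0.95, -1.63, -1.54 and -2.07. Cyp2f2 measured 349, 1643 and 455 CPM against 178, 107 and 221 CPM (log2 -2.04, SE 0.33, adjusted p = 1.59e-06), and without WT replicate 2 the fall was 1.08 and not called.

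Most of the other abundant liver members showed no difference that passed the test. Cyp3a11 overlapped (4996, 4925 and 3214 CPM in WT, 4737, 3641 and 6345 CPM in Scx-/- mice, log2 0.35, SE 0.19, adjusted p = 0.746), as did Cyp1a2 (632 to 950 and 838 to 1224 CPM), Cyp2d10 (762 to 1014 and 915 to 1041 CPM), Cyp3a25 (269 to 796 and 580 to 1077 CPM) and Cyp2a12 (81.0 to 1242 and 450 to 953 CPM). Cyp2c70 was lower in every Scx-/- library as CPM (1683 to 1811 in WT and 1264 to 1439 in Scx-/- mice), but its log2 value after scaling was -0.22 (SE 0.24, adjusted p = 0.810). With a term for whether a library carried more Xist or more Y-linked counts, added after the data were seen, 13 liver members were called, and Cyp2d9 (log2 1.34) and Cyp4a14 (log2 1.05) were not among them. Within one kind of library the comparison holds 1 or 2 libraries a genotype and was not tested.

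**Figure D4:**
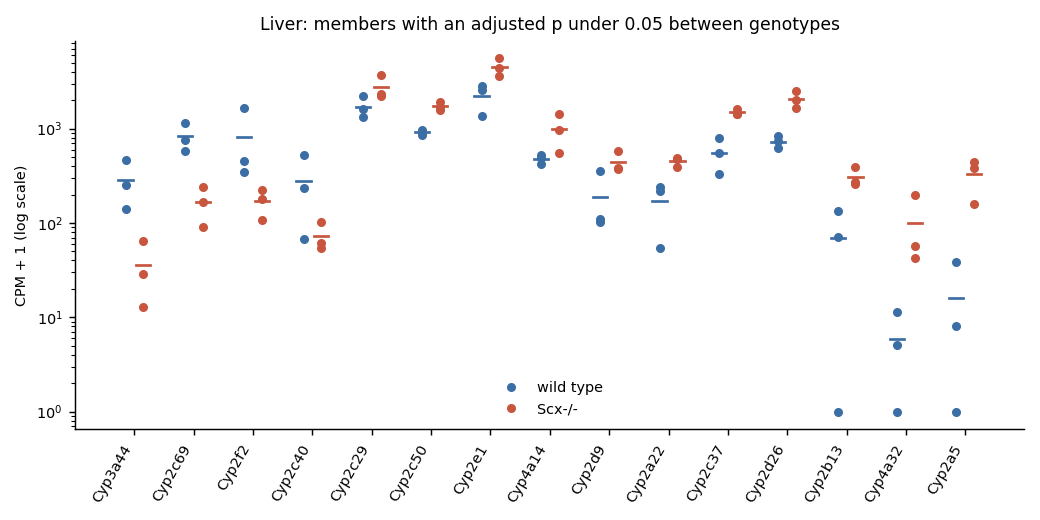
CPM + 1 on a log scale (y axis) of the 15 members that differed between genotypes in liver (x axis), with a dot per library, blue for wild type and red for Scx-/-, and a bar at the mean of 3 libraries. The 4 members at the left were lower and the 11 others higher in Scx-/- liver, with Cyp2a5 and Cyp4a32 at the far right; of the 15, Cyp2c40 overlaps between the genotypes.

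Partners of the P450 enzymes were examined as lists. Beside them stand 0.442% of all liver genes called and 5.18% at an unadjusted p under 0.05. Of 5 redox partners, 1 was called and 2 had an unadjusted p under 0.05: the reductase Por, which feeds electrons to all microsomal P450s, measured 258, 175 and 399 CPM in WT and 315, 793 and 784 CPM in Scx-/- liver (log2 1.35, SE 0.33, adjusted p = 0.0114), with overlap through Scx-/- replicate 1. Cyb5a, the cytochrome b5 of the same membrane, stood at 1382 to 2256 and 2106 to 3015 CPM (log2 0.76, adjusted p = 0.0930). Of 19 conjugation and hydrolysis genes tested, 5 had an unadjusted p under 0.05 and 2 rose by adjusted p, both cytosolic sulfotransferases: Sult1d1 (185, 32.6 and 138 CPM to 336, 451 and 431 CPM, log2 1.91, SE 0.39, adjusted p = 6.17e-04) and Sult1a1 (902, 367 and 748 CPM to 1171, 1302 and 1201 CPM, log2 1.03, SE 0.26, adjusted p = 0.0265). None of 15 regulators was called by edgeR, and 1 had an unadjusted p under 0.05. The receptor Nr1i3 was at 129, 12.2 and 52.9 CPM in WT and at 174, 184 and 190 CPM in Scx-/- mice (log2 1.59, SE 0.52, adjusted p = 0.245), Nr1i2 at 42.3 to 167 and 49.3 to 57.3 CPM, and Ppara at 102 to 257 and 104 to 135 CPM. Of 13 targets of Ppara outside the P450s, 0 were called by adjusted p in edgeR, 4 had an unadjusted p under 0.05 and all 4 were higher by the thresholds of the study. Of 8 hepatocyte markers 3 had an unadjusted p under 0.05 and 1 rose by adjusted p, Apoa2 (log2 0.72, adjusted p = 0.00314). Of 9 acute phase genes 2 had an unadjusted p under 0.05 and 1 fell by adjusted p, Orm1, a call with 273 CPM in WT replicate 2 and 0 to 6.23 CPM in the other libraries, and of 11 genes of other P450 families and 11 clock genes none was called by edgeR, with 2 and 1 at an unadjusted p under 0.05.

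In kidney 3 of 31 members were called between genotypes by adjusted p, where 0.195% of 15377 genes were (2 higher and 1 lower, and 2 higher and 0 lower with library totals). By the thresholds of the study 2 were higher and 2 lower, where 1.63% and 2.69% of all genes were. The median log2 difference was -0.29 for the members and -0.28 for all genes, but the sign of the members' median turned with DESeq2 (0.14, with -0.14 for all genes) and with filterByExpr (0.40 over 14 members, with -0.05 for all genes), so no direction is given for them. The genotypes did not overlap for 6 members, beside 10.7% of all genes. Cyp4a14 measured 731, 270 and 433 CPM in WT and 912, 1228 and 1097 CPM in Scx-/- kidney, without overlap, and rose 2.09-fold (log2 1.07, SE 0.24, adjusted p = 0.00687). It was not called without WT replicate 2 (log2 0.80), WT replicate 3 (1.00) or Scx-/- replicate 2 (0.99). Cyp2d26, the only other member to rise, went from 751, 156 and 556 CPM to 1261, 949 and 1349 CPM (log2 1.18, SE 0.27, adjusted p = 0.0264), and was called only when WT replicate 1 was the library left out, with 0.77 without WT replicate 2, 1.28 without WT replicate 3, and 1.12, 1.34 and 1.09 without Scx-/- replicates 1, 2 and 3. Cyp2j13 was called lower, but its only counts were in WT replicate 2 at 152 CPM, which is at least 17.7-fold higher in WT when the Scx-/- libraries together are given 3 counts as their floor; without Scx-/- replicates 1, 2 and 3 in turn the fitted log2 values were -8.04, -8.10 and -8.14 and not called, and without WT replicate 2 no count is left. With filterByExpr, and with DESeq2, 0 kidney members were called, and with the term for Xist 2 were called, Cyp2j13 (log2 -8.60) not among them.

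Cyp4a10 was higher in every Scx-/- kidney library (880, 616 and 805 CPM in WT, 1060, 1707 and 1312 CPM in Scx-/- mice) without passing the test (log2 0.72, SE 0.22, adjusted p = 0.250). Cyp2j5 overlapped (log2 -0.05, SE 0.21, adjusted p = 0.971). WT replicate 2 stood apart from the other 5 kidney libraries for several members, with Cyp4b1 at 981 CPM against 8.93 to 53.6 CPM and Cyp2e1 at 155 CPM against 2.98 to 99.0 CPM. Of 11 genes of other P450 families tested, 1 was called and 3 had an unadjusted p under 0.05, and by the thresholds of the study 1 was higher and 2 lower. The gene called, the vitamin D 24-hydroxylase Cyp24a1, rose from 49.2, 59.1 and 53.6 CPM to 130, 620 and 544 CPM (log2 2.88, SE 0.37, adjusted p = 1.21e-10). Of 17 conjugation and hydrolysis genes, 1 was called and 5 had an unadjusted p under 0.05, and by the thresholds of the study 0 were higher and 3 lower. The gene called, the epoxide hydrolase Ephx2, fell from 200, 377 and 153 CPM to 91.7, 95.2 and 53.6 CPM (log2 -1.70, SE 0.42, adjusted p = 0.0295). Of the redox partners, regulators, Ppara targets, clock and acute phase genes tested in kidney (5, 13, 12, 10 and 4), 0 were called by edgeR, with 1, 0, 3, 2 and 0 at an unadjusted p under 0.05, as were 5.26% of all kidney genes. Of 8 proximal tubule markers 2 fell, Kap (log2 -1.25, adjusted p = 5.79e-16) and Slc22a6 (log2 -1.39, adjusted p = 0.00687), and their summed level was 32015 to 43432 CPM in WT and 28638 to 29786 CPM in Scx-/- kidney; the 6 squamous genes summed to 62.0, 69.3 and 120.5 CPM in WT and 31.3, 9.21 and 8.25 CPM in Scx-/- kidney, and the 4 brown fat genes to 70.5 to 203.8 CPM in WT and 76, 0 and 0 CPM in Scx-/- kidney. The part of these cell types in the P450 values was not tested. In bulk tissue, fewer cells of a type and less RNA per cell cannot be told apart.

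**Figure D5:**
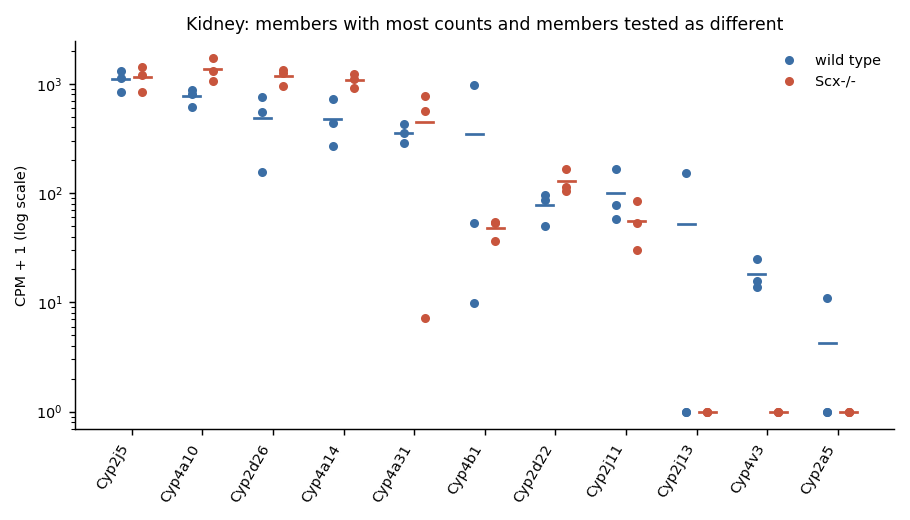
CPM + 1 on a log scale (y axis) of the 8 kidney members with the highest mean CPM and of Cyp2j13, Cyp4v3 and Cyp2a5 (x axis), with a dot per library, blue for wild type and red for Scx-/-, and a bar at the mean of 3 libraries. Cyp4a10, Cyp2d26 and Cyp4a14 are higher in all 3 Scx-/- libraries, and WT replicate 2 alone carries Cyp2j13 and stands far above the rest for Cyp4b1.

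Whether the genotype effect differed between liver and kidney was tested as an interaction over the same 12 libraries, each treated as independent. Of 60 members 2 were called, where 0.145% of all genes were, and both were at 0 in all Scx-/- kidney libraries. With library totals 1 of these calls was left and with filterByExpr 0. For Cyp2a5 the effect in liver exceeded that in kidney by 8.28 on the log2 scale (SE 1.51, adjusted p = 1.85e-04), with kidney levels of 9.85, 0 and 0 CPM in WT and 0 in Scx-/- mice, so its kidney side rests on WT replicate 1, without which the value was 4.41 and not called. Cyp4v3 had 270, 236 and 307 CPM in WT and 207, 184 and 209 CPM in Scx-/- liver, and 12.8, 14.8 and 23.8 CPM in WT and 0 in Scx-/- kidney, which is at least 5.54-fold lower when that group is given 3 counts as its floor. Its interaction was 5.75 (SE 1.35, adjusted p = 0.0219) and was lost without WT replicate 3 of kidney (5.39) or Scx-/- replicate 1 (5.75), 2 (5.78) or 3 (5.80). Cyp4a14 and Cyp2d26, called in both organs, had interactions of 0.21 (SE 0.42) and 0.52 (SE 0.38), neither called.

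In rectum 1 of 33 members was called, where 0.441% of all genes were. Cyp2f2 had 4.60, 0 and 0 CPM in WT and 1258, 43.3 and 31.8 CPM in Scx-/- libraries (log2 6.85, SE 1.32, adjusted p = 1.20e-04), and without Scx-/- replicate 1 the log2 value was 3.79 and not called, and the gene did not pass filterByExpr. The squamous keratin Krt5 was at 0 in all 3 WT libraries and at 4980, 854 and 455 CPM in the Scx-/- libraries, the first of which also held most Cyp2f2, and 1 of 6 squamous markers had counts in WT rectum against 6 of 6 in Scx-/- rectum. The part of this tissue difference in Cyp2f2 was not tested. Cyp2d34 had 308, 770 and 40.2 CPM against 0, 173 and 63.7 CPM (log2 -2.001, SE 0.87, adjusted p = 0.706).

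Bladder had 0 of 38 members called by adjusted p in edgeR (8 at an unadjusted p under 0.05, as were 4.33% of all genes), and by the thresholds of the study 8 were higher in Scx-/- mice, where 1.81% of all genes were, and 0 lower, where 1.95% were. The 8 were Cyp3a11, Cyp2d10, Cyp2c37, Cyp2c40, Cyp2c29, Cyp1a2, Cyp2c70 and Cyp2j6. Cyp2j6 measured 5.10, 21.4 and 6.86 CPM in WT and 33.9, 68.7 and 115 CPM in Scx-/- bladder, without overlap. The 7 others have their highest mean in liver, and Scx-/- replicate 2 carried nearly all of their counts, with Cyp3a11 at 0 CPM in all WT libraries and at 19.4, 131 and 0 CPM in Scx-/- bladder, and Cyp2d10 and Cyp2c29 both at 87.4 CPM in replicate 2 and 0 in the other Scx-/- libraries. The same library held Alb at 3046 CPM, against 0 to 259 CPM in the other 5, and all hepatocyte markers at 6064 CPM against 281 to 1008 CPM. The squamous genes did not overlap between genotypes either (3563 to 3991 CPM in WT and 4304 to 5373 CPM in Scx-/- bladder), and their part in these values was not tested. Without it 2 members passed the thresholds of the study. Without Scx-/- replicate 3, 1 member, Cyp3a11, reached an adjusted p under 0.05 (log2 8.10).

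In the other 12 tissues 0 of 333 tests of members passed an adjusted p under 0.05 by edgeR or by DESeq2, and 13 had an unadjusted p under 0.05, where 3.67% of all tests did. Those past the thresholds of the study rested mostly on 1 or 2 libraries. Cyp1a1 in intestine, whose values are given above, had a log2 of -3.72 (SE 1.72, adjusted p = 0.652), Cyp4f13 in lung went from 20.5, 364 and 37.6 CPM to 0, 4.396 and 0 CPM (log2 -5.18, SE 2.16, adjusted p = 0.741), and Cyp2d22 in cartilage from 0, 0 and 7.25 CPM to 132, 0 and 61.6 CPM (log2 4.47, SE 2.09, adjusted p = 0.769). Cyp4b1 had 18.4, 8.06 and 68.9 CPM in WT cartilage and Cyp2c69 22.7, 88.9 and 28.4 CPM in WT heart, both with 0 in all 3 Scx-/- libraries. Cyp2j9 in muscle had 25.3 CPM in 1 WT library and 0 in the other 5. Cyp4v3 in heart, Cyp4f14 in hippocampus, Cyp1a2 in spleen, Cyp2a12 in vascular tissue and Cyp2j9 in intestine had 0 in WT and counts in 1 or 2 Scx-/- libraries, and Cyp4f16 in bone and Cyp4f13 in vascular tissue 0 in Scx-/- and counts in 1 or 2 WT libraries. The vascular counts of Cyp2a12 were all in Scx-/- replicate 3, the library with Alb at 2694 CPM.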

How the data were processed

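The deposited file holds whole-number counts per gene, which the authors made by aligning MuSeq reads to mm10 with Bowtie2 at default settings and counting with HTSeq (versions not given in the sources used here). All 96 libraries were used, and 19082 of 41575 genes were at 0 in every library. The P450 members and the gene lists were chosen with earlier results of these data known. Levels are CPM on the library total. Tests used edgeR 4.0.16 in R 4.3.3 (quasi-likelihood, TMM scaling, genes at 0 in all libraries of the fit removed, Benjamini-Hochberg over all genes tested): WT against Scx-/- within each tissue on 6 libraries, tissues over all 96 libraries with genotype as a term, and liver against kidney with the interaction over 12 libraries. Because contrasts with the mean of 15 tissues on the log scale are governed by tissues at 0, the comparison with each other tissue, by the largest of the 15 pairwise p-values, was added after the data were seen. Alternatives were RLE scaling, library totals, filterByExpr, a replicate block, DESeq2 1.42.0, edgeR's adjusted quasi-dispersion, a term for Xist, and leaving out each library. Shares per genotype were also computed after the data were seen. Scripts were tested on simulated data first.

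Members named in the text were the most counted in each tissue where they peaked (up to 4, at least 10 CPM), the 12 most counted in liver, 8 in kidney and 4 in lung and in intestine, all called between genotypes or in the interaction, up to 4 a direction and tissue with the largest change past the thresholds of the study (at least 20 CPM in 1 genotype), and the most abundant of each subfamily; Cyp2a4, whose promoter is printed, and other members were added after their values were seen. Lower bounds of a fold against a group at 0 use 3 counts over the group and cover counting error only. No 2 of the 96 replicate pairs were identical, and each differed beyond counting error (chi-square per degree of freedom at least 6.93). This check covers counting error only and does not separate technical from biological differences. Promoters came from RefSeq GRCm38.p6 and transcripts from GENCODE.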

Additional observations from a re-analysis of the deposited data

Results flagged for a closer look

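The genotype effect differed between liver and kidney for 2 members by edgeR's interaction test, and for 1 with library totals and 0 with filterByExpr. For Cyp2a5 the log2 effect in liver minus that in kidney was 8.28, and its kidney side rests on 1 WT library at 9.85 CPM, since the 5 other kidney libraries were at 0. For Cyp4v3 it was 5.75, with all 3 WT kidney libraries above 0 and all 3 Scx-/- kidney libraries at 0. Both values depend on the prior count of the fit because the Scx-/- kidney group is at 0 for both.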

How the results depend on the processing

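The median log2 difference of the kidney members, -0.29, was 0.14 with DESeq2 and 0.40 with filterByExpr. For Cyp4a10 and Cyp4a14 the log2 value for liver over kidney was positive after scaling, while their mean CPM was higher in kidney. In liver, 15 members called by adjusted p became 3 with filterByExpr and 7 with the adjusted quasi-dispersion and filterByExpr, 13 with library totals, with DESeq2 or with the Xist term, and 9 to 16 when single libraries were left out. In kidney, 3 became 0 with filterByExpr, 0 with DESeq2 and 0 with the adjusted quasi-dispersion and filterByExpr, and 0 to 3 without single libraries, and by the thresholds of the study 4 became 2, 1 with both, and 1 to 5. In rectum 1 became 0 with filterByExpr and 0 to 1 without single libraries. In bladder 0 became 0 to 1 without single libraries, and by the thresholds of the study 8 became 1 with filterByExpr, 2 with the replicate block, 4 with DESeq2 and 2 to 9 without single libraries. Members above the mean of 15 tissues in liver fell from 47 to 31 with filterByExpr, and members above each other tissue outside liver were 5 with library totals, 1 with filterByExpr and 0 to 1 without a replicate. The 2 interactions became 1 with library totals, 0 with filterByExpr and 1 to 3 without single libraries. Without the 10 most counted genes, the P450 share was 2.98% in WT and 3.95% in Scx-/- liver, 0.470% and 0.670% in kidney, 0.294% and 0.346% in lung, and 0.770% in Scx-/- intestine. The cause of these shifts was not tested.

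Same-numbered WT and Scx-/- libraries did not deviate together in liver (correlations of -0.028 to 0.022) or kidney, so the replicate numbers were not taken as pairs; with the replicate block 12 liver and 2 kidney members were called. Liver and kidney libraries of the same number correlated best with each other in 6 of 6 cases, a hint from the data and not from the design. The comparison of these organs and its interaction, as given above, treated their libraries as independent. Depth limits detection: of 52 members counted in liver 50 reached 5 counts, and of 31 in kidney 25 did.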

Other observations

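Some P450 genes of these families fall outside the naming rule and were looked at after their values were seen. The pseudogene Cyp2d37-ps had 165 counts in all, with 70.6, 53.0 and 24.7 CPM in WT and 36.4, 18.7 and 19.0 CPM in Scx-/- liver, which overlap. Cyp4a12b had 35 counts over the 96 libraries, Cyp4b1-ps2 20, Cyp2ab1 17 and Cyp4a12a 8.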
